A study of Mus musculus with 2 samples.

Results

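Heat shock-high islet macrophages were the macrophages of mouse pancreatic islets in which transcripts of 3 stress chaperone genes, Hspa1a, Hspa1b and Dnajb1, took up the largest share of the RNA. They numbered 225 of 2863 macrophages, among 3418 cell barcodes in all. Each library came from a pool of islets of 6 to 8 chow-fed male C57BL/6J mice. Live cells positive for the leukocyte protein CD45 and negative for the epithelial protein Epcam had been sorted and sequenced one by one in droplets, with transcripts counted near their 3' ends by unique molecular identifiers (UMIs). There was 1 library labelled 12 weeks, with 1867 barcodes and 12448628 UMIs, and 1 library labelled 1 week, with 1551 barcodes and 12858754 UMIs. What the weeks count is not stated in the labels, nor is the age of the mice. The labels name no genetic change or drug treatment.

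Barcodes with fewer than 500 genes or fewer than 1000 UMIs, or with more than 10% of UMIs from mitochondrial genes, were left out, which kept 1752 at 12 weeks and 1340 at 1 week. A barcode was taken as a macrophage if it held at least 5 UMIs of the complement genes C1qa, C1qb and C1qc together. This gave 1620 macrophages at 12 weeks (92.5% of kept barcodes) and 1243 at 1 week (92.8%). Members had a 3-gene share of UMIs at or above the 90th percentile of their library's macrophages and an Hmox1 share below its own 90th percentile. There were 131 members against 1489 remaining macrophages at 12 weeks, and 94 members against 1149 remaining macrophages at 1 week. The libraries had 3 barcode sequences in common, and none of the members carried one of them. The 3 genes and Hmox1 chose the cells, so their levels are given below as a description.

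The heat shock response protects cells from misfolded protein. When unfolded protein accumulates, the transcription factor HSF1 binds heat shock elements, which are inverted repeats of GAA, and induces chaperones: HSP70 proteins with their HSP40 and exchange-factor partners, HSP90 with its co-chaperones, small heat shock proteins and the mitochondrial chaperonin. The response is set off by heat, oxidants and metals, and also by the warming and enzyme digestion used to take tissues apart. Islet macrophages are long-lived resident phagocytes that lie against the hormone-secreting cells and their vessels.

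The 3-gene share was spread over a wide range in both libraries. The median macrophage had a share of 0.0556% of UMIs at 12 weeks and 0.0562% at 1 week, while the 75th percentiles were 1.07% and 0.356% and the highest shares 6.94% and 6.41%. No UMI of the 3 genes was found in 23.4% of macrophages at 12 weeks (379 of 1620, exact 95% binomial interval 21.4 to 25.5) and in 28.2% at 1 week (351 of 1243, 25.7 to 30.8). The distribution had no gap at the threshold. The Hmox1 rule kept 31 macrophages of each library with a share above it out of the members, among them the macrophage with the highest share at 1 week, where the highest member share was 5.87%. The threshold lay at 1.90% at 12 weeks and 0.987% at 1 week, the lowest member shares were 1.91% and 0.989%, and the highest shares just under the threshold were 1.90% and 0.979%. Among kept barcodes outside the macrophage gate the median share was 0% at 12 weeks (3920.0 UMIs per barcode) and 0.00178% at 1 week (6499 UMIs per barcode).

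**Figure D1:**
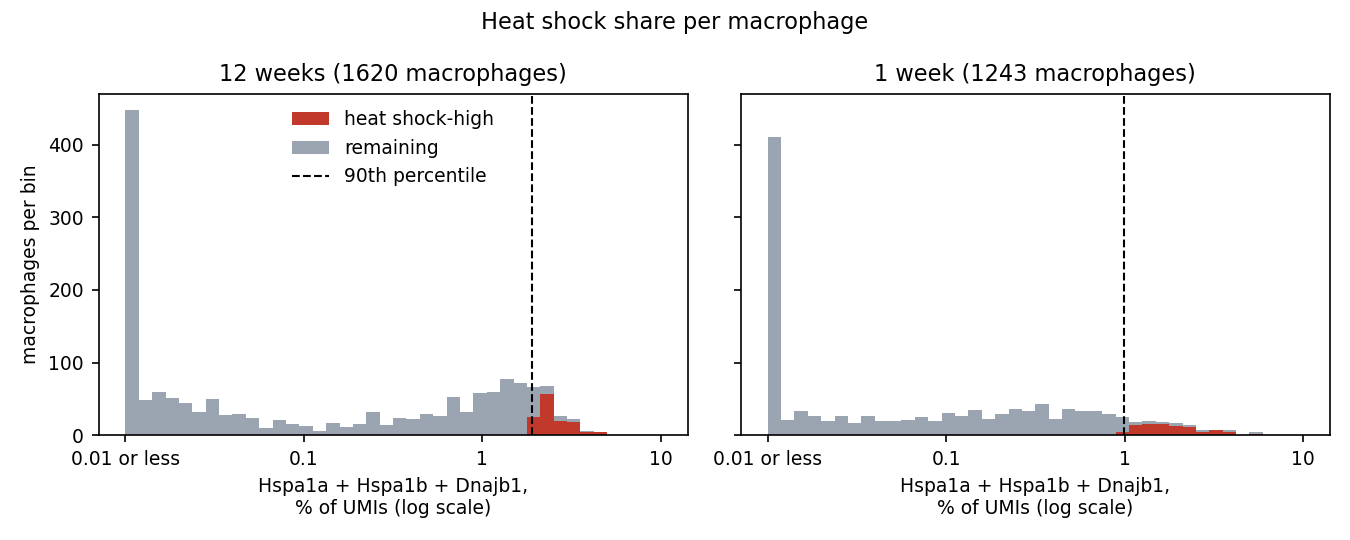
Number of macrophages (y axis) by the share of UMIs from Hspa1a, Hspa1b and Dnajb1 (x axis, percent on a log scale, shares of 0.01% or less in the first bin), with heat shock-high macrophages in red, remaining macrophages in grey and the 90th percentile as a dashed line. The 12-week library has a broad second hump near 1% to 3%, so that many grey cells lie close to the threshold, while the 1-week library tails off from lower shares.

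Macrophages outside the members also carried these transcripts. Among the remaining macrophages, shares of 0.5% or more were seen in 455 of 1489 at 12 weeks (30.6%, exact 95% binomial interval 28.2 to 33.0). At 1 week they were seen in 153 of 1149 (13.3%, 11.4 to 15.4). Over all macrophages, members included, shares of 0.5% or more were seen in 586 of 1620 at 12 weeks (36.2%, exact 95% binomial interval 33.8 to 38.6) and in 247 of 1243 at 1 week (19.9%, 17.7 to 22.2). With 1 library per label, the time label and the pool of mice cannot be told apart, and the titles number these libraries as replicates of the chow diet although their time labels differ. Intervals here and below cover counting error only.

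The inducible HSP70 genes Hspa1a and Hspa1b, whose products refold damaged proteins in the cytosol, made up most of the share. Levels are UMIs per 1000000 UMIs of the summed cells (CPM). Hspa1a had 11719 CPM in heat shock-high against 1945 CPM in remaining macrophages at 12 weeks, and 10139 CPM in heat shock-high against 957 CPM in remaining macrophages at 1 week. For Hspa1b the values were 12812 CPM in heat shock-high against 2044 CPM in remaining macrophages at 12 weeks, and 7754 CPM in heat shock-high against 833 CPM in remaining macrophages at 1 week. The HSP40 gene Dnajb1, whose product stimulates the ATPase of HSP70, had 1350.0 CPM in heat shock-high against 269 CPM in remaining macrophages at 12 weeks, and 699 CPM in heat shock-high against 136 CPM in remaining macrophages at 1 week. Every member held UMIs of both HSP70 genes. Hspa1a made up 48.6% of the Hspa1a and Hspa1b UMIs in the median member at 12 weeks (22.4% to 64.4%) and 56.8% at 1 week (26.7% to 88.5%). These genes are near-identical copies in their coding parts, but none of the 410 stretches of 91 bases, the length of the reads, in the last 500 bases of either transcript occurred in the other. Hmox1, which encodes the heme-degrading enzyme heme oxygenase-1, had 4242 CPM in heat shock-high against 3717 CPM in remaining macrophages at 12 weeks, and 2211 CPM in heat shock-high against 1781 CPM in remaining macrophages at 1 week.

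The promoters of both HSP70 genes are shown because their products dominate the selecting share, and the capitals mark a heat shock element of 2 units (GAANNTTC or TTCNNGAA). The sequences are the 150 bases before the annotated start, from RefSeq on GRCm38.p6, the assembly that mm10 names. Hspa1a is at chr17:34972157-34972306 and Hspa1b at chr17:34959239-34959388, both on the minus strand.
Hspa1a: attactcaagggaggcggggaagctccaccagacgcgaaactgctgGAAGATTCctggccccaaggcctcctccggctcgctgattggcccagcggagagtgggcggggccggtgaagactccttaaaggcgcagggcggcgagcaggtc
Hspa1b: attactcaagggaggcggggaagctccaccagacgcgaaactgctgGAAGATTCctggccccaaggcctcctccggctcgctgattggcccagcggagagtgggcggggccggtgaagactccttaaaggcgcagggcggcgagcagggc
The stretches were identical at 149 of 150 bases (99.3%), and the single match lay at the same place in both.

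Members carried macrophage markers. All 12 macrophage markers were detected in heat shock-high cells of both libraries, and their summed level was 14217 CPM in heat shock-high against 17256 CPM in remaining macrophages at 12 weeks, and 16631 CPM in heat shock-high against 19011 CPM in remaining macrophages at 1 week. These 12 include C1qa, C1qb and C1qc, which the macrophage gate used, so the sum partly reflects how the cells were chosen. C1qa had 2262 CPM in heat shock-high against 3270 CPM in remaining macrophages at 12 weeks, and 3060 against 3846 CPM at 1 week. Of 19 genes of macrophage identity tested, none passed in either direction, with 1 higher and 3 lower at an unadjusted p under 0.05, and their median log2 difference was -0.00 beside -0.04 over all genes tested. The growth factor receptor gene Csf1r had 368 CPM in heat shock-high against 486 CPM in remaining macrophages at 12 weeks, and 579 CPM in heat shock-high against 524 CPM in remaining macrophages at 1 week. Adgre1, which encodes F4/80, had 218 CPM in heat shock-high against 207 CPM in remaining macrophages at 12 weeks, and 244 CPM in heat shock-high against 217 CPM in remaining macrophages at 1 week. Depth was alike, with medians of 6842 UMIs in heat shock-high against 6909 UMIs in remaining macrophages at 12 weeks, and 7382 UMIs in heat shock-high against 7405 UMIs in remaining macrophages at 1 week. The median mitochondrial share was 2.67% in heat shock-high against 3.097% in remaining macrophages at 12 weeks, and 2.79% in heat shock-high against 3.46% in remaining macrophages at 1 week.

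Across the transcriptome, 399 of 9921 tested genes were higher (4.02%) and 170 lower (1.71%), 569 in either direction (5.74%), in heat shock-high than in remaining macrophages, at an edgeR quasi-likelihood Benjamini-Hochberg adjusted p under 0.05. Counts were summed per library and group, and the library was a block, so each p-value measures only how far the difference varied between these 2 libraries, with 1 residual degree of freedom beside the spread estimated across genes. The sign was the same in both libraries for 568 of the 569 called genes. The cells were chosen and the genes read from the same droplets, so any gene that varies from cell to cell along with the 3 selecting genes will differ.

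Many chaperone genes that the rule did not use were higher in members. Of 84 tested genes of 6 chaperone and heat shock lists, 29 were higher and none lower, where 4.02% of all genes were higher; at an unadjusted p under 0.05 the counts were 37 higher and 3 lower. DESeq2 called 28 higher and 0 lower. The other 55 did not pass. The median log2 difference of the 84 genes was 0.34 beside -0.04 over all genes tested. Without the library as a block, none of the 84 passed. In single cells the 95 measured genes of these lists took up a median of 5.75% of UMIs in heat shock-high against 2.92% in remaining macrophages at 12 weeks, and 3.84% in heat shock-high against 1.91% in remaining macrophages at 1 week. All 131 members at 12 weeks and all 94 at 1 week lay above the median of the remaining macrophages.

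**Figure D2:**
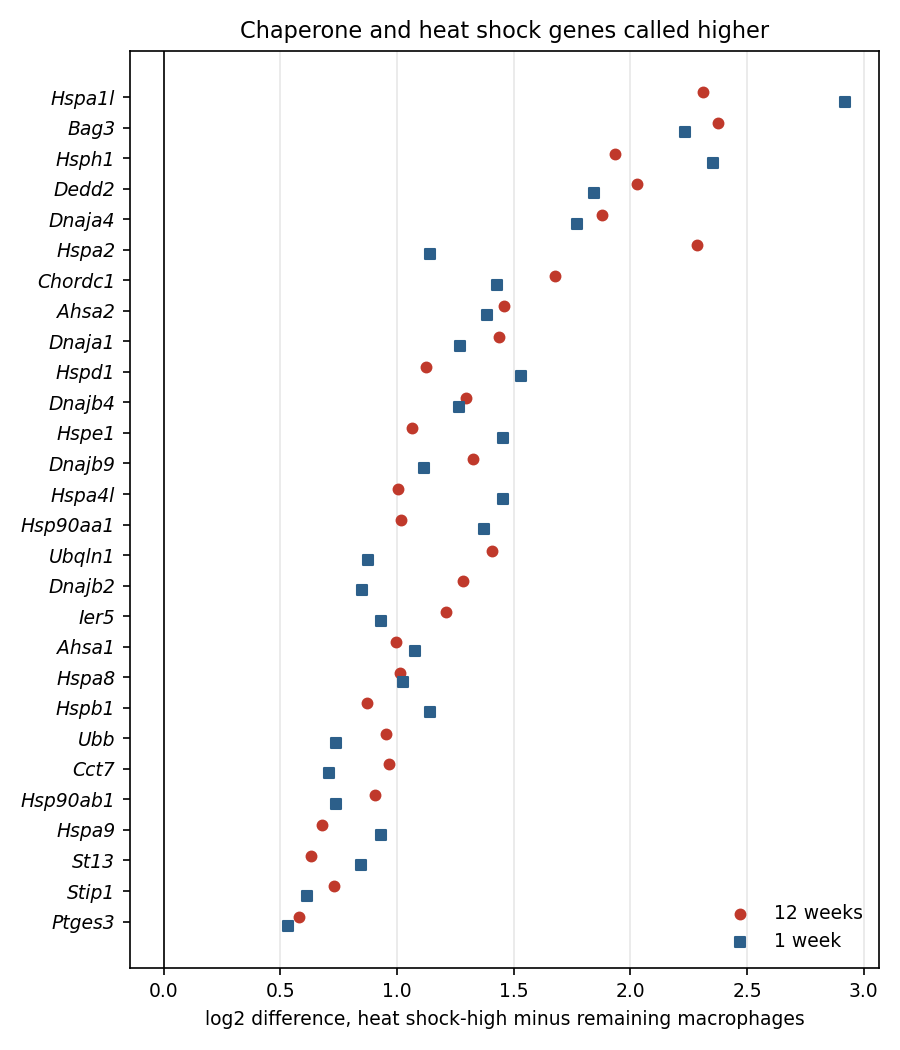
Log2 difference, heat shock-high minus remaining macrophages (x axis), for 28 of the 29 chaperone and heat shock genes called higher (y axis), with the 12-week library as red circles and the 1-week library as blue squares. Every point lies right of 0, Hspa1l, Bag3 and Hsph1 lie farthest right, and Ptges3 nearest to 0.

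The HSP70 relative Hspa1l and the HSP70 partners Bag3 and Hsph1 had the highest log2 differences among them. Hsph1, the HSP110 exchange factor that reloads HSP70 with ATP, had 2185 CPM in heat shock-high against 589 CPM in remaining macrophages at 12 weeks, and 955 CPM in heat shock-high against 200.3 CPM in remaining macrophages at 1 week (log2 difference 2.14, SE 0.16, edgeR adjusted p = 4.63e-05). Bag3, the exchange factor that links HSP70 to autophagy, had 479 CPM in heat shock-high against 94.96 CPM in remaining macrophages at 12 weeks, and 299.9 CPM in heat shock-high against 68.2 CPM in remaining macrophages at 1 week (log2 difference 2.31, SE 0.15, edgeR adjusted p = 2.58e-05). In both libraries both genes were several times higher in members. The HSP70 paralog Hspa1l, which lies next to Hspa1a on the opposite strand, had 36.4 CPM in heat shock-high against 7.29 CPM in remaining macrophages at 12 weeks, and 12.8 CPM in heat shock-high against 1.51 CPM in remaining macrophages at 1 week (log2 difference 2.60, SE 0.39, edgeR adjusted p = 0.00239), on 32 and 10 member UMIs. Hspa8, the constitutive HSP70 of the cytosol, had 8287 CPM in heat shock-high against 4245 CPM in remaining macrophages at 12 weeks, and 5066 CPM in heat shock-high against 2670.2 CPM in remaining macrophages at 1 week (log2 difference 1.02, SE 0.16, edgeR adjusted p = 0.00381). Smaller rises were called for the HSP110 relative Hspa4l (1.22 on the log2 scale), the mitochondrial HSP70 gene Hspa9 (0.80), the HSP70-interacting protein gene St13 (0.74) and Hspa2 (1.83, on 22 and 11 member UMIs), the last missing the threshold by DESeq2 (adjusted p = 0.081). In all, 8 of 20 tested HSP70 genes and exchange factors were higher. Hspa5, which encodes the endoplasmic reticulum HSP70 BiP, had 1988 CPM in heat shock-high against 1419.9 CPM in remaining macrophages at 12 weeks, and 2112 CPM in heat shock-high against 1597 CPM in remaining macrophages at 1 week and missed the threshold (log2 difference 0.52, SE 0.15, edgeR adjusted p = 0.0682).

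Of 21 tested HSP40 co-chaperones, which hand clients to HSP70, 5 were higher. Dnaja1, a cytosolic HSP40, had 4228 CPM in heat shock-high against 1609 CPM in remaining macrophages at 12 weeks, and 1483 CPM in heat shock-high against 661 CPM in remaining macrophages at 1 week (log2 difference 1.36, SE 0.15, edgeR adjusted p = 5.00e-04). Dnaja4 had 72.8 CPM in heat shock-high against 20.2 CPM in remaining macrophages at 12 weeks, and 16.7 CPM in heat shock-high against 4.99 CPM in remaining macrophages at 1 week (log2 difference 1.88, SE 0.25, edgeR adjusted p = 0.00107). Dnajb4 differed by 1.29, the endoplasmic reticulum member Dnajb9 by 1.23 and Dnajb2 by 1.10 on the log2 scale. The other 16 did not pass, among them Dnaja2 with 228 CPM in heat shock-high against 195 CPM in remaining macrophages at 12 weeks, and 132 CPM in heat shock-high against 128 CPM in remaining macrophages at 1 week. The median of the list was 0.20.

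The HSP90 arm had 7 of 16 tested genes higher, with a list median of 0.53. Hsp90aa1, the inducible cytosolic HSP90, had 7575 CPM in heat shock-high against 3865 CPM in remaining macrophages at 12 weeks, and 3824 CPM in heat shock-high against 1586 CPM in remaining macrophages at 1 week (log2 difference 1.19, SE 0.17, edgeR adjusted p = 0.00179). Hsp90ab1, its constitutive counterpart, differed by 0.82 (SE 0.16, edgeR adjusted p = 0.0118). The co-chaperone genes called were Chordc1 (1.57), the HSP90 ATPase activator Ahsa1 (1.04) and its relative Ahsa2 (1.43), the HSP70 to HSP90 adaptor Stip1 (0.68) and the p23 gene Ptges3 (0.56), of which Stip1 missed the threshold by DESeq2 (adjusted p = 0.0717). Chordc1 had 404 CPM in heat shock-high against 130.3 CPM in remaining macrophages at 12 weeks, and 174 CPM in heat shock-high against 69.4 CPM in remaining macrophages at 1 week. The endoplasmic reticulum HSP90 gene Hsp90b1 had 812 CPM in heat shock-high against 862 CPM in remaining macrophages at 12 weeks, and 655 CPM in heat shock-high against 676 CPM in remaining macrophages at 1 week, with a log2 difference of 0.01 (SE 0.14).

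The mitochondrial chaperonin pair also rose. Hspd1, which encodes the HSP60 barrel, had 1508 CPM in heat shock-high against 713 CPM in remaining macrophages at 12 weeks, and 732 CPM in heat shock-high against 272 CPM in remaining macrophages at 1 week (log2 difference 1.32, SE 0.16, edgeR adjusted p = 6.20e-04). Hspe1, which encodes its HSP10 lid, had 2956 CPM in heat shock-high against 1459 CPM in remaining macrophages at 12 weeks, and 1832 CPM in heat shock-high against 718 CPM in remaining macrophages at 1 week (log2 difference 1.26, SE 0.16, edgeR adjusted p = 0.00101). Of the cytosolic chaperonin subunits, Cct7 was called (0.84) and the other subunits tested did not pass, for example Tcp1 at 0.42 (SE 0.15) and Cct8 at 0.15 (SE 0.15), giving 3 of 14 for the whole chaperonin list. Only 2 of 8 small heat shock protein genes had enough counts to test. Hspb1, which holds unfolded proteins soluble, had 1728 CPM in heat shock-high against 974 CPM in remaining macrophages at 12 weeks, and 399.9 CPM in heat shock-high against 195 CPM in remaining macrophages at 1 week (log2 difference 1.00, SE 0.15, edgeR adjusted p = 0.00252), and Hspb11 missed the threshold (0.93, SE 0.36).

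Among regulators and ubiquitin genes, 5 of 11 were higher. Ubb, a polyubiquitin gene that supplies ubiquitin, had 7988 CPM in heat shock-high against 4261 CPM in remaining macrophages at 12 weeks, and 5558 CPM in heat shock-high against 3583 CPM in remaining macrophages at 1 week (log2 difference 0.84, SE 0.17, edgeR adjusted p = 0.0125). Ier5, whose product acts on HSF1, differed by 1.07, the ubiquilin gene Ubqln1 by 1.17 and Dedd2, which encodes a death-effector-domain protein, by 1.96 on the log2 scale. The heat shock factor gene Hsf1 itself had 9.103 CPM in heat shock-high against 10.04 CPM in remaining macrophages at 12 weeks, and 6.41 CPM in heat shock-high against 12.6 CPM in remaining macrophages at 1 week and did not pass (log2 difference -0.45, SE 0.42).

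Heat shock elements were searched for in the 250 bases before the annotated starts, on both strands, in the RefSeq promoter table of GRCm38.p6. The 3-unit form (GAANNTTCNNGAA or TTCNNGAANNTTC) was found in 0.514% of 27025 genes and the 2-unit form, which every 3-unit match contains, in 14.5%. Of the 29 chaperone genes called higher, 23 had a promoter in the table, and 2 of these held the 3-unit form (8.70%) and 7 the 2-unit form (30.4%: Hsph1, Dnaja1, Dnaja4, Dnajb4, Hspb1, Hspd1 and Hspe1). A match before any listed start of a gene counted. The 3-unit matches of Hspd1 and Hspe1 were the same stretch of bases, read on opposite strands. For Hspd1, Dnajb4 and Dnaja4 the matches lay before the downstream of the listed starts, inside the gene. The 150 bases before the other listed start of these genes held none. Of the chaperone genes tested and not called, 44 were in the table, with 1 (2.27%) and 7 (15.9%). Hspb1 (chr5:135887769-135887918, plus strand) and Dnajb4 (chr3:152193846-152193995, minus strand) are shown as called genes with 2-unit matches, and Hspe1 (chr1:55088054-55088081, plus strand) for the longest run of units, which lies upstream of the Hspe1 start and inside the annotated Hspd1 gene, whose first bases overlap Hspe1 on the other strand.
Hspb1: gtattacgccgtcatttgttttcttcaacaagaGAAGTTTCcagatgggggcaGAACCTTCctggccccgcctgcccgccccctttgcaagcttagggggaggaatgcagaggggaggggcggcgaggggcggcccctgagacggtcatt
Dnajb4: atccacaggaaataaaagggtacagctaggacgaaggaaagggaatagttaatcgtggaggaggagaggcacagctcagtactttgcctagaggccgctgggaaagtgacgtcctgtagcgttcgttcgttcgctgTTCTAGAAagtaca
Hspe1: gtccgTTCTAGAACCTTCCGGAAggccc
A match describes the letters of the window and was not set against binding data.

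The other chaperone transcripts followed the 3-gene share across all macrophages as well. When the macrophages of each library were ordered by that share and split into deciles, Hsph1 had 261 CPM in decile 1, 367 CPM in decile 5 and 2159.8 CPM in decile 10 at 12 weeks, and 47.96, 145 and 1011 CPM in the same deciles at 1 week. Bag3 had 13.4, 31.1 and 458 CPM at 12 weeks and 22.9, 37.3 and 335 CPM at 1 week. For Hspd1 the values were 418, 545 and 1545 CPM at 12 weeks and 142, 224 and 827 CPM at 1 week. The levels climbed by degrees over the upper deciles, with the highest level in decile 10 for each of these genes. Hmox1 took another course at 12 weeks, with 2153 CPM in decile 1, 4921 CPM in decile 6 and 5358 CPM in decile 10, while at 1 week it had 1256, 1625 and 3129 CPM.

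**Figure D3:**
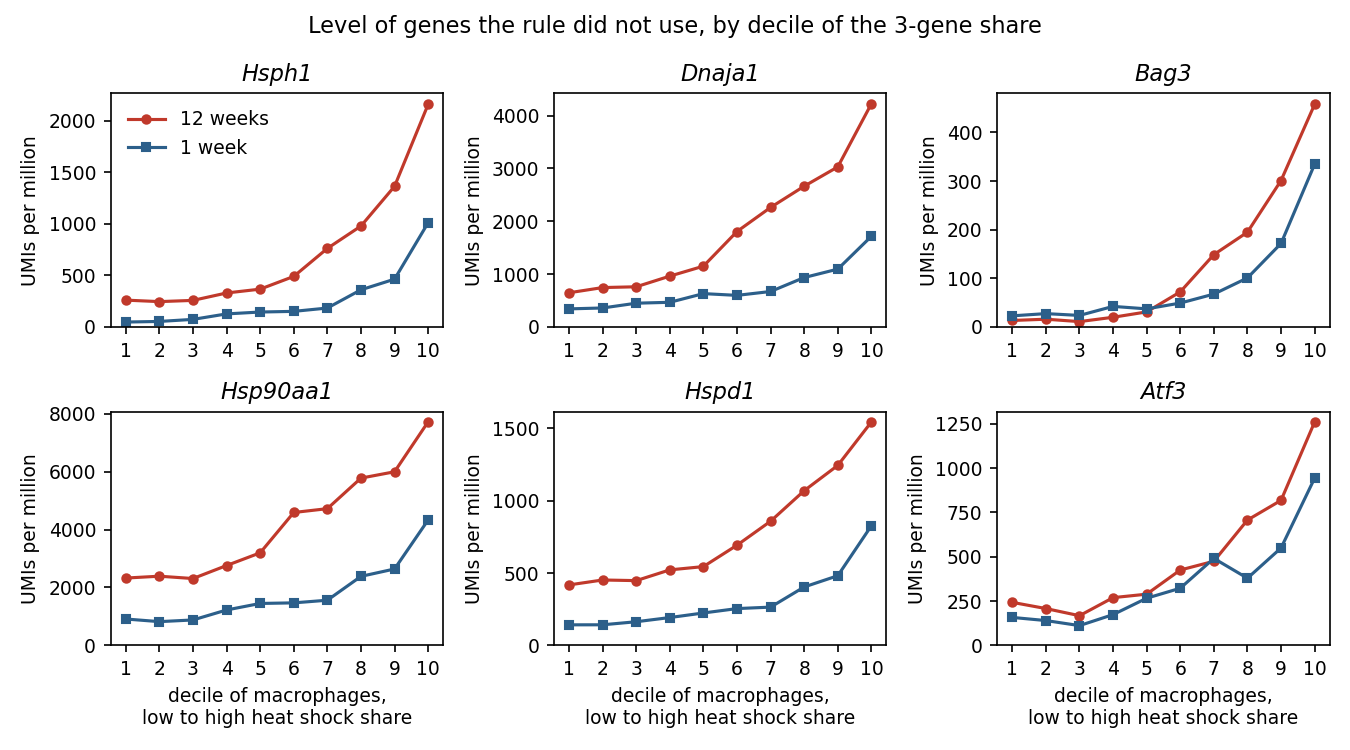
Level in CPM (y axes) of 5 chaperone genes and Atf3 in deciles of the macrophages ordered from low to high 3-gene share (x axes), with the 12-week library as red circles and the 1-week library as blue squares. All 6 genes are highest in decile 10 of both libraries, and the chaperone genes other than Bag3 are higher at 12 weeks than at 1 week in every decile.

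Members differed among themselves in the same way. Within the members, Spearman's rho between the 3-gene share and the summed share of the other chaperones was 0.49 at 12 weeks (131 cells) and 0.46 at 1 week (94 cells). With the share of immediate early genes it was 0.38 at 12 weeks and 0.16 at 1 week, with the number of UMIs -0.22 and -0.17, and with the Hmox1 share -0.06 and -0.07. The rule kept macrophages of high Hmox1 share out of the members, so the values for Hmox1 cover a cut range. In the remaining macrophages rho between the 3-gene share and the Hmox1 share was 0.52 at 12 weeks and 0.16 at 1 week. The cells of a library share its pool and its depth, so these are descriptions.

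Immediate early genes, the transcription factors and feedback regulators switched on within minutes of a stimulus, were often higher as well. Of 26 tested, 15 were higher and 1 was lower, where 4.02% of all genes were higher and 1.71% lower. Their median log2 difference was 1.08 beside -0.04 over all genes tested. Fosb, a subunit of the AP-1 transcription factor, had 501 CPM in heat shock-high against 86.4 CPM in remaining macrophages at 12 weeks, and 328 CPM in heat shock-high against 79.7 CPM in remaining macrophages at 1 week (log2 difference 2.37, SE 0.16, edgeR adjusted p = 2.58e-05). The stress-induced factor gene Atf3 had 1335 CPM in heat shock-high against 407 CPM in remaining macrophages at 12 weeks, and 973 CPM in heat shock-high against 301 CPM in remaining macrophages at 1 week (log2 difference 1.78, SE 0.14, edgeR adjusted p = 7.38e-05). The orphan nuclear receptor genes Nr4a2 and Nr4a1 differed by 2.35 and 1.65 and the factor Klf4 by 2.17 on the log2 scale. Every one of these 5 was at least 2 times as high in members as in remaining macrophages, in each library. Jun had 906 CPM in heat shock-high against 211 CPM in remaining macrophages at 12 weeks, and 468 CPM in heat shock-high against 235 CPM in remaining macrophages at 1 week (log2 difference 1.64, SE 0.21, edgeR adjusted p = 0.00108), and Fos differed by 1.04 (SE 0.17). Dusp2, which encodes a phosphatase of MAP kinases, fell, with 33.00 CPM in heat shock-high against 81.4 CPM in remaining macrophages at 12 weeks, and 73.1 CPM in heat shock-high against 133 CPM in remaining macrophages at 1 week (log2 difference -0.97, SE 0.20, edgeR adjusted p = 0.0138). The immediate early share of UMIs lay above the median of the remaining macrophages in 128 of 131 members at 12 weeks and in 84 of 94 at 1 week.

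The integrated stress and unfolded protein response list had 5 of 34 tested genes higher and none lower, with a median of 0.12. Those called were Gadd45g, a stress-induced growth arrest gene (1.60), Ddit3, which encodes the factor CHOP (1.47), Ppp1r15a, the phosphatase subunit that ends translational arrest (1.26), Dnajb9 and the transcription factor gene Atf4 (0.74). Ddit3 had 193 CPM in heat shock-high against 69.02 CPM in remaining macrophages at 12 weeks, and 137 CPM in heat shock-high against 55.9 CPM in remaining macrophages at 1 week (edgeR adjusted p = 3.56e-04). In the proteasome and ubiquitin list, of 36 tested genes, the zinc finger genes Zfand2a (1.47) and Zfand5 (0.87), whose products help the proteasome, were higher and the catalytic subunit Psmb5 was lower (-0.98), with a list median of -0.26. The counts of this list lay near the shares over all genes. The heat- and arsenite-inducible Zfand2a had 364 CPM in heat shock-high against 135 CPM in remaining macrophages at 12 weeks, and 196 CPM in heat shock-high against 76.8 CPM in remaining macrophages at 1 week (edgeR adjusted p = 2.30e-04).

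**Figure D4:**
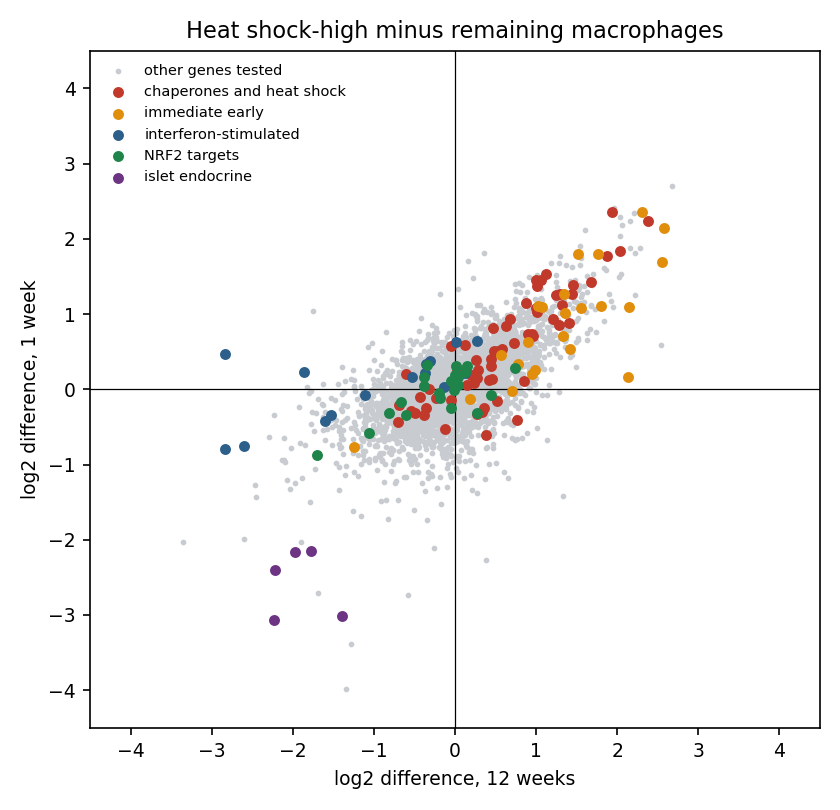
Log2 difference, heat shock-high minus remaining macrophages, in the 12-week library (x axis) and the 1-week library (y axis) for the 4045 genes with a mean of at least 20 CPM, of which 6 lie outside the axes, with 5 gene groups coloured. Chaperone genes (red) and immediate early genes (orange) lie mostly in the upper right, endocrine transcripts (purple) in the lower left, and interferon-stimulated genes (blue) mostly left of 0 at 12 weeks and on both sides of 0 at 1 week.

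Outside the chaperone lists, the genes that stood highest included Slc5a3, the sodium-coupled transporter of the osmolyte inositol, with 139 CPM in heat shock-high against 22.1 CPM in remaining macrophages at 12 weeks, and 94.9 CPM in heat shock-high against 15.3 CPM in remaining macrophages at 1 week (log2 difference 2.71, SE 0.19, edgeR adjusted p = 2.58e-05). Slc5a3 overlaps Mrps6 on the same strand, so its reads may come from either gene. The kinase gene Pim3 had 75.1 CPM in heat shock-high against 17.1 CPM in remaining macrophages at 12 weeks, and 73.1 CPM in heat shock-high against 16.4 CPM in remaining macrophages at 1 week (log2 difference 2.22, SE 0.20, edgeR adjusted p = 1.54e-04). The phosphatase gene Dusp8 (2.18), the transcription factor gene Klf9 (2.15) and the noncoding Map2k3os (2.15) and Gm15726 (2.19) followed. The 2 highest values rested on single cells of the 1-week library. Thap1 differed by 3.58, but 1 barcode held 85.4% of its member UMIs at 1 week, and without each profile's highest barcode the value was 1.63. Dopey2 differed by 3.24, with 92.4% of its member UMIs at 1 week in 1 barcode and a value of 1.05 without it, and DESeq2 called neither Thap1 (adjusted p = 0.627) nor Dopey2 (adjusted p = 0.445).

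Some growth factor genes were higher. Of 10 tested, the cytokine gene Osm, the angiogenic factor gene Vegfa and the EGF receptor ligand gene Hbegf were higher and none was lower, while the list median was -0.43. Of all genes tested, 4.02% were higher and 1.71% lower. At an unadjusted p under 0.05 the counts for the list were 3 higher and 3 lower. Osm had 151 CPM in heat shock-high against 58.5 CPM in remaining macrophages at 12 weeks, and 88.4 CPM in heat shock-high against 43.2 CPM in remaining macrophages at 1 week (log2 difference 1.29, SE 0.17, edgeR adjusted p = 0.00125). Vegfa differed by 0.87 and Hbegf by 1.68, the second on 21 and 17 member UMIs and not called by DESeq2 (adjusted p = 0.0557). With the member threshold at the 95th percentile, Vegfa differed by 0.28 and was not called (edgeR adjusted p = 0.661). The efferocytosis receptor gene Mertk, the 1 gene called of 10 scavenger and efferocytosis receptors, had 38.7 CPM in heat shock-high against 6.53 CPM in remaining macrophages at 12 weeks, and 7.69 CPM in heat shock-high against 4.89 CPM in remaining macrophages at 1 week (log2 difference 2.02, SE 0.43, edgeR adjusted p = 0.0186), on 34 and 6 member UMIs. The log2 difference of Mertk was 2.55 at 12 weeks and 0.71 at 1 week, and DESeq2 did not call it (adjusted p = 0.078). The glucose transporter gene Slc2a1 (1.10) was higher and the glycolytic enzyme gene Eno1 (-0.79) lower among 17 glycolysis genes, Eno1 without a call by DESeq2 (adjusted p = 0.196). Of 17 cell cycle genes, Cdkn1a and Hmgb2 were higher and Tubb5 and Mcm6 lower, with a median of -0.46. Tubb5 was not called by DESeq2 (adjusted p = 0.154). It was also not called with the member threshold at the 80th (edgeR adjusted p = 0.119) or 95th percentile (edgeR adjusted p = 0.326). Mcm6 was not called at the 80th percentile (edgeR adjusted p = 0.111) or with each cell's counts thinned at random to 2000 UMIs (edgeR adjusted p = 0.0910). The cell cycle inhibitor gene Cdkn1a had 1157 CPM in heat shock-high against 652 CPM in remaining macrophages at 12 weeks, and 668 CPM in heat shock-high against 437 CPM in remaining macrophages at 1 week (log2 difference 0.80, SE 0.14, edgeR adjusted p = 0.00736).

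More inflammatory genes were lower than higher. Of 23 tested cytokines and chemokines, 1 was higher and 4 were lower, where 4.02% of all genes were higher and 1.71% lower, with a list median of -0.30. The chemokine gene Ccl3 had 1032 CPM in heat shock-high against 700.3 CPM in remaining macrophages at 12 weeks, and 1011 CPM in heat shock-high against 571 CPM in remaining macrophages at 1 week (log2 difference 0.77, SE 0.15, edgeR adjusted p = 0.0118). Il12b, a subunit of interleukin-12, had 9.103 CPM in heat shock-high against 35.98 CPM in remaining macrophages at 12 weeks, and 12.8 CPM in heat shock-high against 57.5 CPM in remaining macrophages at 1 week (SE 0.29 of the log2 difference, edgeR adjusted p = 0.00181), and Il1rn, the interleukin-1 receptor antagonist, had 52.3 CPM in heat shock-high against 195 CPM in remaining macrophages at 12 weeks, and 84.6 CPM in heat shock-high against 152 CPM in remaining macrophages at 1 week (log2 difference -1.27, SE 0.23, edgeR adjusted p = 0.00811). Il12b was not called with each cell's counts thinned at random to 2000 UMIs (log2 difference -1.23, edgeR adjusted p = 0.133). The chemokine gene Cxcl10 differed by -1.03. Cxcl3 differed by -2.55, on 0 and 22 member UMIs, and was not called by DESeq2 (adjusted p = 0.533). Il1b, which encodes a cytokine that acts on islet beta cells, had 1879.8 CPM in heat shock-high against 1548 CPM in remaining macrophages at 12 weeks, and 2278 CPM in heat shock-high against 1385 CPM in remaining macrophages at 1 week and did not pass (log2 difference 0.57, SE 0.17, edgeR adjusted p = 0.0713). Among 22 interferon-stimulated genes none was higher and 4 were lower: Mx1 (-2.42), Ifit3 (-1.82), Ifit1 (-1.72) and Ifit3b (-2.43). Ifit1, which restricts viral RNA, had 15.9 CPM in heat shock-high against 120.1 CPM in remaining macrophages at 12 weeks, and 41.02 CPM in heat shock-high against 76.7 CPM in remaining macrophages at 1 week (log2 difference -1.72, SE 0.35, edgeR adjusted p = 0.0138). DESeq2 called neither Ifit1 (adjusted p = 0.405) nor Ifit3b (adjusted p = 0.241). The median of the interferon list was -0.85, and it was -1.29 in the 12-week library alone against -0.02 in the 1-week library alone, a gap that was not tested. The sums of these 4 genes in members rested on 1 to 32 UMIs per library.

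None of the listed antioxidant genes that were tested was called higher. Hmox1 was not tested, because the rule used it, and its levels are given above. Of 23 tested targets of NRF2, the transcription factor that answers oxidants, none was higher and 2 were lower, with a median of -0.05. The whole set of 9921 genes had 4.02% higher and 1.71% lower. At an unadjusted p under 0.05 the NRF2 counts were 1 higher and 6 lower, beside 1075 and 905 in the whole set. Prdx1, a peroxide-reducing enzyme, had 1598 CPM in heat shock-high against 3457 CPM in remaining macrophages at 12 weeks, and 1596 CPM in heat shock-high against 2557 CPM in remaining macrophages at 1 week (log2 difference -0.82, SE 0.17, edgeR adjusted p = 0.0155). Slc7a11, the cystine importer for glutathione synthesis, had 93.3 CPM in heat shock-high against 314 CPM in remaining macrophages at 12 weeks, and 128 CPM in heat shock-high against 252 CPM in remaining macrophages at 1 week (log2 difference -1.28, SE 0.20, edgeR adjusted p = 0.00299). The remaining macrophages include those that the Hmox1 rule kept out of the members. Without the Hmox1-high macrophages in the comparison, Prdx1 and Slc7a11 were still called lower. Srxn1, which repairs peroxiredoxins, had 456 CPM in heat shock-high against 467 CPM in remaining macrophages at 12 weeks, and 247 CPM in heat shock-high against 214 CPM in remaining macrophages at 1 week and Txnrd1, thioredoxin reductase, 916 CPM in heat shock-high against 981 CPM in remaining macrophages at 12 weeks, and 667 CPM in heat shock-high against 664 CPM in remaining macrophages at 1 week, and neither passed. The iron exporter gene Slc40a1 was the 1 gene called of 13 in the metal list (-1.47, on 10 and 5 member UMIs), and DESeq2 did not call it (adjusted p = 0.288).

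Few genes passed in the housekeeping and antigen presentation lists, where 4.02% of all genes tested were higher and 1.71% lower. At an unadjusted p under 0.05, 1075 of all 9921 genes tested were higher and 905 lower. None of 42 ribosomal protein genes and none of 26 lysosome and lipid handling genes was called, with no ribosomal gene and 1 higher and 3 lower lysosomal genes at an unadjusted p under 0.05. In the respiratory chain list 1 of 30 was lower (Ndufa4, -0.73, DESeq2 adjusted p = 0.0833), with 0 higher and 7 lower at an unadjusted p under 0.05, a median of -0.26 and 2 of 30 above 0. In the MHC class II list 1 of 11 was lower, the transactivator gene Ciita (-1.33). DESeq2 called a smaller number of genes in all, 244 higher and 59 lower.

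Hormone transcripts were lower in the summed members. Of 9 tested islet endocrine transcripts, 8 were lower, with a median of -2.31. Without barcodes of 1% or more endocrine UMIs, an alternative chosen after seeing the data, Ins2 differed by -0.26 (edgeR adjusted p = 0.333) and Iapp by -0.17 (edgeR adjusted p = 0.708), and neither they nor Ins1, Chga, Gcg and Ppy passed. Somatostatin Sst turned to 0.14 there and to 1.00 in the middle range of UMIs, and Gcg turned to 0.28 with at least 20 C1q UMIs, none of these past the threshold. Insulin Ins2 had 1093 CPM in heat shock-high against 4424 CPM in remaining macrophages at 12 weeks, and 2793 CPM in heat shock-high against 13432 CPM in remaining macrophages at 1 week (log2 difference -2.07, SE 0.17, edgeR adjusted p = 9.28e-05). Much of the sum in the remaining macrophages came from few barcodes, and without each profile's highest barcode Ins2 differed by -1.47 and Iapp, islet amyloid polypeptide, by -1.50 rather than -2.32. In single cells the endocrine share of UMIs had a median of 0.0734% in heat shock-high against 0.0927% in remaining macrophages at 12 weeks, and 0.0942% in heat shock-high against 0.0899% in remaining macrophages at 1 week. The highest values were 7.56% in heat shock-high against 65.1% in remaining macrophages at 12 weeks, and 13.3% in heat shock-high against 79.5% in remaining macrophages at 1 week. The medians were thus close, and the widest gap between the groups lay in their highest cells. Gcg, the glucagon gene, differed by -5.25, but 1 barcode held 98.2% of its remaining-macrophage UMIs at 1 week, and the value without the highest barcodes was -0.74 and missed the threshold. The hemoglobin gene Hbb-bs had 0 UMIs in members and 56.1 CPM over the remaining macrophages of both libraries, with 94.8% of the remaining UMIs at 12 weeks and 100% at 1 week in 1 barcode each, and DESeq2 did not call Hbb-bs (adjusted p = 0.531). In 29 of the 170 genes called lower, a single barcode held at least 25% of the UMIs of a remaining-macrophage profile.

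Markers of B, T, NK, mast cells and neutrophils were rare in members, and dendritic cell markers were more common. The 4 B cell markers summed to 3.41 CPM in heat shock-high against 4.64 CPM in remaining macrophages at 12 weeks, and 43.6 CPM in heat shock-high against 31.4 CPM in remaining macrophages at 1 week. The 7 T and NK cell markers summed to 17.1 CPM in heat shock-high against 21.9 CPM in remaining macrophages at 12 weeks, and 1.28 CPM in heat shock-high against 10.8 CPM in remaining macrophages at 1 week, with Nkg7 and Ncr1 at 0 in members. Neutrophil and mast cell markers summed to 2.28 CPM in heat shock-high against 50.1 CPM in remaining macrophages at 12 weeks, and 2.56 CPM in heat shock-high against 0.282 CPM in remaining macrophages at 1 week. The 7 dendritic cell markers summed to 113 CPM in heat shock-high against 114 CPM in remaining macrophages at 12 weeks, and 87.2 CPM in heat shock-high against 97.9 CPM in remaining macrophages at 1 week, with Zbtb46 at 0 in members. A UMI of a dendritic marker was found in 45.04% of members against 45.7% of remaining macrophages at 12 weeks, and in 44.7% of members against 43.5% of remaining macrophages at 1 week. Siglech had the most UMIs of the dendritic markers over all macrophages (1101 at 12 weeks and 903 at 1 week). Over the lists of other cell types, Il7r alone made up 47.8% of UMIs at 12 weeks and 35.8% at 1 week. Il7r was itself called lower in members, so the next shares partly reflect that gene. At least 2 UMIs over these lists were found in 59.5% of members against 73.0% of remaining macrophages at 12 weeks, and in 63.8% of members against 68.1% of remaining macrophages at 1 week. Without those barcodes, which left out most cells, 36 of 86 named genes kept their direction and call and 50 kept the direction alone. Without barcodes of lineage-marker UMIs, an alternative chosen after seeing the data, 88 of 89 kept both, and the immunoglobulin gene Igkc turned.

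The members differed from Hmox1-high macrophages in antioxidant genes. Hmox1-high macrophages had an Hmox1 share at or above the 90th percentile and a 3-gene share below its own, and numbered 131 at 12 weeks and 94 at 1 week. A further 31 macrophages in each library were high in both shares. In a fit of all 4 groups, 156 of 5880 tested genes were higher (2.65%) and 115 lower (1.96%), 271 in either direction (4.61%), in heat shock-high than in Hmox1-high macrophages, by edgeR's quasi-likelihood test with Benjamini-Hochberg adjustment. Of 22 NRF2 targets tested, none was higher and 12 were lower, with a median of -0.72 beside 0.01 over all genes tested. Prdx1 had 1598 CPM in heat shock-high against 6107 CPM in Hmox1-high macrophages at 12 weeks, and 1596 CPM in heat shock-high against 5952 CPM in Hmox1-high macrophages at 1 week (log2 difference -1.90, SE 0.15, edgeR adjusted p = 2.30e-07). For Slc7a11 the values were 93.3 CPM in heat shock-high against 428 CPM in Hmox1-high macrophages at 12 weeks, and 128 CPM in heat shock-high against 534 CPM in Hmox1-high macrophages at 1 week (log2 difference -2.11, SE 0.21, edgeR adjusted p = 5.03e-06). Srxn1 differed by -0.83, thioredoxin reductase Txnrd1 by -0.77 and the glutathione synthesis gene Gclm by -0.99 on the log2 scale. Both groups were chosen partly on Hmox1, itself an NRF2 target, so genes that vary along with Hmox1 will differ in this direction.

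**Figure D5:**
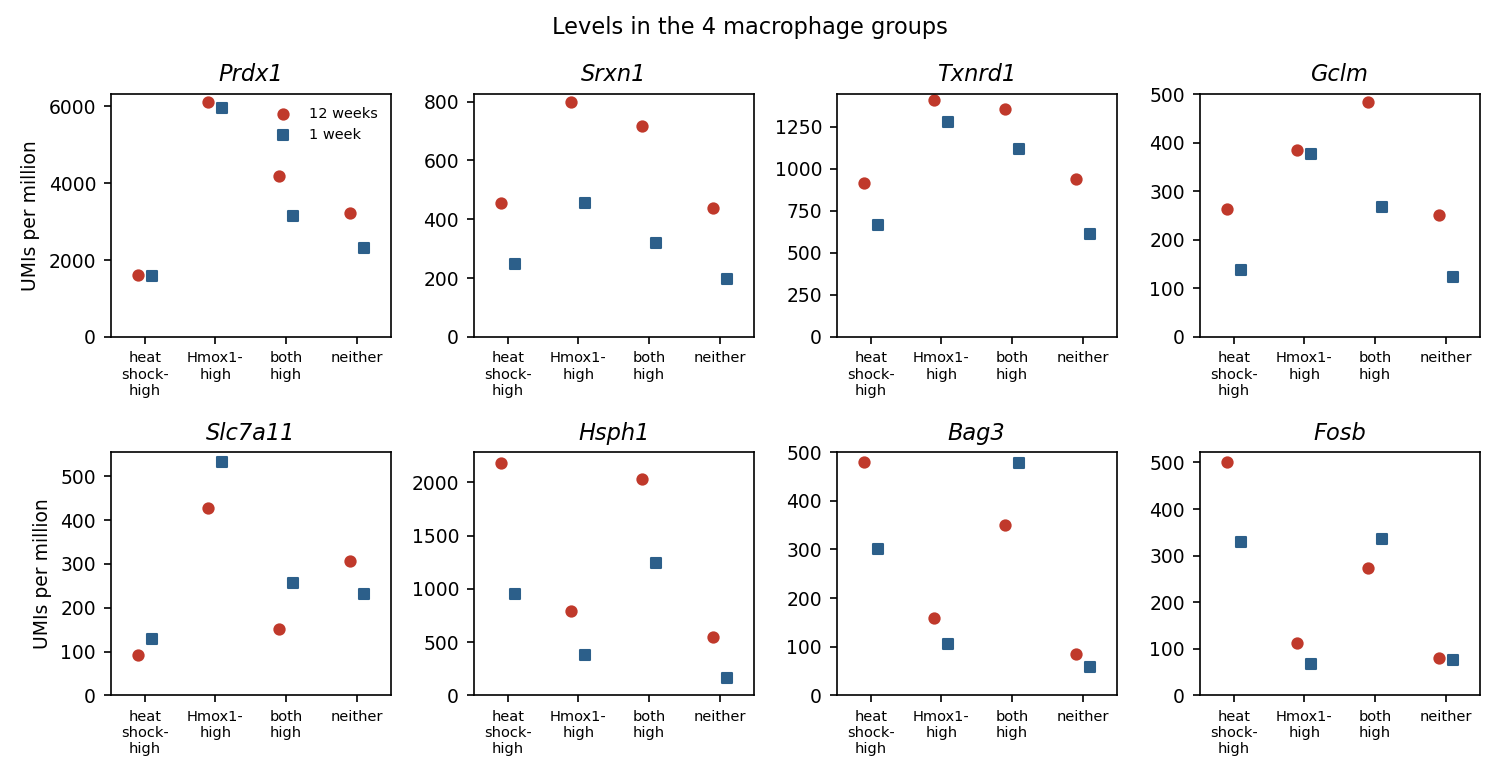
Levels in CPM (y axes) of 5 NRF2 targets, 2 chaperone genes and Fosb in heat shock-high, Hmox1-high, double-high and double-low macrophages (x axes, left to right), with the 12-week library as red circles and the 1-week library as blue squares. Prdx1 and Slc7a11 are lowest in heat shock-high and highest in Hmox1-high macrophages in both libraries, and Hsph1, Bag3 and Fosb are higher in heat shock-high than in Hmox1-high macrophages.

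Chaperones and immediate early genes went the other way in this comparison. Both groups were also chosen on the 3-gene share, so genes that vary along with those 3 genes will differ in this direction. Of 74 chaperone and heat shock genes tested, 12 were higher and none lower, with a median of 0.19, where 2.65% of all genes were higher. Among the 12, DESeq2 did not call Dnaja1 (adjusted p = 0.0899), Dnajb9 (adjusted p = 0.134) or Ahsa2 (adjusted p = 0.0557). Hsph1 had 2185 CPM in heat shock-high against 788 CPM in Hmox1-high macrophages at 12 weeks, and 955 CPM in heat shock-high against 376 CPM in Hmox1-high macrophages at 1 week (log2 difference 1.42, SE 0.19, edgeR adjusted p = 1.32e-04), and Bag3 differed by 1.55. Of 23 immediate early genes, 14 were higher and none lower, with a median of 0.79, led by Fosb with 501 CPM in heat shock-high against 111 CPM in Hmox1-high macrophages at 12 weeks, and 328 CPM in heat shock-high against 66.7 CPM in Hmox1-high macrophages at 1 week (log2 difference 2.21, SE 0.21, edgeR adjusted p = 3.78e-06). Among the 14, DESeq2 did not call Egr1, Fos, Fosl2, Nr4a1 or Nr4a3 (adjusted p from 0.0565 for Nr4a1 to 0.110 for Nr4a3). Of 23 cytokines and chemokines, Il1b and Ccl3 were higher and Cxcl3, Il10 and Il1rn lower, with a median of -0.23, and DESeq2 did not call Ccl3, Cxcl3, Il10 or Il1rn. Il1b had 1879.8 CPM in heat shock-high against 1236 CPM in Hmox1-high macrophages at 12 weeks, and 2278 CPM in heat shock-high against 927 CPM in Hmox1-high macrophages at 1 week (log2 difference 0.95, SE 0.18, edgeR adjusted p = 0.00342). Of 24 lysosome and lipid genes, 4 were lower: the lysosomal lipase gene Lipa (-1.42), the lipid receptor gene Cd36 (-0.94), Lgals3 (-0.66) and Fabp5 (-1.36), the last not called by DESeq2 (adjusted p = 0.199). Among metal genes, metallothionein Mt1 (-0.53) and the iron exporter Slc40a1 (-2.56) were lower. In the 31 double-high macrophages of each library, Hsph1 had 2032 CPM at 12 weeks and 1243 CPM at 1 week, and Prdx1 4198 CPM at 12 weeks and 3151 CPM at 1 week.

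Between the libraries, members at 12 weeks carried more of several chaperones than members at 1 week, as did the remaining macrophages, and no test was possible with 1 library per label. In heat shock-high macrophages Hsph1 had 2185 CPM (95% Poisson interval 2088 to 2285) at 12 weeks and 955 CPM (95% Poisson interval 888 to 1026) at 1 week, and in remaining macrophages 589 CPM (95% Poisson interval 575 to 604) at 12 weeks and 200.3 CPM (95% Poisson interval 192 to 209) at 1 week. Hspb1 in heat shock-high macrophages had 1728 CPM (95% Poisson interval 1643 to 1818) at 12 weeks and 399.9 CPM (95% Poisson interval 357 to 447) at 1 week. Hspa9 in heat shock-high macrophages, by contrast, had 205 CPM (95% Poisson interval 176 to 237) at 12 weeks and 210.2 CPM (95% Poisson interval 179 to 245) at 1 week, whose intervals overlap. The members' thresholds differed between the libraries (1.90% at 12 weeks and 0.987% at 1 week), so their levels were set by different limits.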

How the data were processed

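The authors deposited raw UMI counts per gene and barcode; Cell Ranger and the build mm10 are named in the submitters' processing notes, and version 3.1.0 in the file headers. How the authors called cells is not stated. Members, gene lists and the rule for named genes were chosen with earlier results of these data known. Named genes were the called chaperone genes, the 12 highest and 12 lowest other called genes with the same sign in both libraries and a mean of at least 20 CPM, and up to 4 called genes of each other list.

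Counts of 131 and 94 members and of the remaining macrophages were summed per library and tested with edgeR 4.0.16 (R 4.3.3) by its quasi-likelihood test, with TMM scaling, low genes removed by filterByExpr, a term for the library, and adjusted p (Benjamini-Hochberg) under 0.05 over all genes tested. The members' sums held 878834 UMIs at 12 weeks and 780147 at 1 week. Nothing in the labels pairs mice between groups; both groups of a library come from 1 pool, which is why the library is a block. Genes used by the rule were not tested. Log2 differences per library used a prior count of 2. The fits were tested on simulated data. No doublet caller was run. Alternatives left out cells of extreme depth or with other-cell markers, changed the thresholds, filters and scaling, or used DESeq2 1.42.0. A chaperone list gene, Cct6a, was not matched. Some named genes are not reported here; they remain in the counts. Gene positions came from GENCODE on GRCm38 and promoters from RefSeq on GRCm38.p6.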

Additional observations from a re-analysis of the deposited data

Results flagged for a closer look

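Of the kept barcodes outside the macrophage gate, 4 of 132 at 12 weeks (3.03%, exact 95% binomial interval 0.832 to 7.58) and 4 of 97 at 1 week (4.12%, 1.13 to 10.2) had a 3-gene share at or above the members' threshold. These barcodes were in no comparison and stand apart only in that the signal appeared in cells that were not used.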

How the results depend on the processing

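Counts of genes higher and lower than in remaining macrophages were 399 and 170. Without the replicate block, 7 were higher and 0 lower, where the blocked fit had 1075 and 905 at an unadjusted p under 0.05; against Hmox1-high macrophages that fit gave 4 higher and 2 lower, and 0 chaperone genes higher. DESeq2 called 244 higher and 59 lower, and 87 higher against Hmox1-high macrophages. More genes were called higher with stricter cell filters (663), at least 20 C1q UMIs (617), Hmox1 not used (813), and, chosen after seeing the data, remaining macrophages below the median share (781) and a share of 1% or more in both libraries (704). Fewer passed without barcodes of other-cell UMIs (108 higher, 31 lower, 9 chaperones), which left out most cells. Lower calls numbered 260 with DESeq2 size factors, 396 without a filter on low counts, 313 at a mean of 50 counts, 294 at the 80th and 277 at the 95th percentile, 455 with stricter cells, 354 with 20 C1q UMIs, 288 in the middle range of UMIs, 492 with Hmox1 not used, 267 without Hmox1-high macrophages in the rest, 483 with the rest below the median, 419 at 1%, and 338 without each gene's highest barcode (chosen after seeing the data), which moved the median of all genes to -0.10. Chaperone genes lower numbered 1 at the 95th percentile, with Hmox1 not used, with the rest below the median and at 1%. Direction turned for Gcg with 20 C1q UMIs (0.28), Igkc without lineage-marker barcodes (1.02), and Sst in the middle range of UMIs (1.00) and without barcodes of 1% or more endocrine UMIs (0.14). The cause was not tested in these cases. Of 399 genes higher, 232 were also higher by DESeq2 and 369 without each gene's highest barcode. The value of each named gene kept its sign in either library alone; leaving out a library leaves no residual degrees of freedom, so no count was possible. Single-cell depth limits genes of few UMIs, such as Hspa2, Hbegf and the interferon genes.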

Other observations

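Other genes also set the members apart from Hmox1-high macrophages. Gdf15, which encodes a stress-induced cytokine, had 59.2 CPM in heat shock-high against 258 CPM in Hmox1-high macrophages at 12 weeks, and 52.6 CPM in heat shock-high against 141 CPM in Hmox1-high macrophages at 1 week (log2 difference -1.82, SE 0.26, edgeR adjusted p = 3.52e-04). Itgb8, an integrin chain, was lower too, with 12.5 CPM in heat shock-high against 53.8 CPM in Hmox1-high macrophages at 12 weeks, and 10.3 CPM in heat shock-high against 26.1 CPM in Hmox1-high macrophages at 1 week (log2 difference -1.81, SE 0.39, edgeR adjusted p = 0.00894). Klf2, a transcription factor counted among the immediate early genes above, had 54.6 CPM in heat shock-high against 3.93 CPM in Hmox1-high macrophages at 12 weeks, and 32.0 CPM in heat shock-high against 11.6 CPM in Hmox1-high macrophages at 1 week (log2 difference 2.61, SE 0.55, edgeR adjusted p = 0.00832), on 3 and 8 Hmox1-high UMIs. These genes were among the 12 highest and 12 lowest of that comparison.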
